A study of Homo sapiens with 12 samples.

Results

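The 10 genes described here encode the stress machinery of the endoplasmic reticulum (ER): the sensors ATF6 and ERN1, the transcription factor XBP1, the luminal chaperones and folding factors HSPA5, HSP90B1, PDIA4, CALR and SDF2L1, the co-chaperone DNAJB9, and HERPUD1, a membrane protein of ER-associated degradation. They were chosen by symbol, as a list, with earlier results of these data known, and all 10 were found among the 60649 genes counted in each library. All 10 also passed the filter on low counts and were tested.

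Proteins that enter the secretory pathway fold in the ER with the help of HSPA5, also called BiP or GRP78. When unfolded proteins build up, BiP leaves the sensors ATF6, IRE1 (the product of ERN1) and PERK (the product of EIF2AK3). ATF6 is then cut in the Golgi to release a transcription factor, IRE1 splices XBP1 mRNA, and PERK slows translation and favours that of ATF4. Together these branches raise chaperones and degradation factors, and when stress persists they favour cell death through DDIT3, which encodes CHOP.

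RNA from SBC3 spheroids was sequenced; SBC3 is an established human small cell lung cancer line, so every library comes from 1 line. There were 4 groups of 3 libraries: control, teriflunomide, lurbinectedin, and both drugs (labelled Teriflunomide/Lurbinectedin, called the combination below). Teriflunomide inhibits DHODH, an enzyme of pyrimidine synthesis, and lurbinectedin binds DNA and blocks transcription. The labels give no dose or exposure time and do not say whether replicates came from separate cultures, so p-values measure the spread between these libraries, which may be technical.

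Total counts ranged from 23206414 to 33222162 per library. The share of counts on mitochondrial genes was 6.26% to 7.17% in control, 8.42% to 22.6% with teriflunomide, between 13.8% and 17.0% under lurbinectedin and between 13.1% and 24.9% for the combination. Teriflunomide replicate 3 and combination replicate 2 held the highest shares, and calls that change without both of them, a choice made after seeing the data, are given with the genes below. Among small cell lung cancer subtype and neuroendocrine markers, YAP1 was at 246 CPM on average in control and 64.9 CPM with lurbinectedin, and SYP at 16.8 and 30.9 CPM. NCAM1 had 6 counts in all 12 libraries together and INSM1 had 0. Fibroblast markers, 3 of 4 of which passed, summed to 520 to 550 CPM in control and 187 to 221 CPM with lurbinectedin, while DCN had 1 count in all. The 3 leukocyte markers summed to at most 0.447 CPM in any library. The 3 endothelial markers summed to at most 0.579 CPM, and the 4 epithelial markers, nearly all of it KRT8, summed to 236 to 252 CPM in control and 400.1 to 433 CPM with lurbinectedin. KRT18, one of them, has many pseudogene copies, and how reads shared with such copies were counted is not stated, so its level near 0 is uncertain. The part of these shifts in the results below was not tested. In bulk RNA, fewer cells of a kind and less RNA per cell cannot be told apart.

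The promoters of several of these genes carry the ER stress response element (ERSE), and they are shown for this element, which only some of the members hold. Both published forms were searched on both strands of the RefSeq promoters (GRCh38.p14, 250 bases before to 50 after each start): ERSE as CCAAT, any 9 bases, then CCACG, and ERSE-II as ATTGG, any 1 base, then CCACG. Another motif, the core of the unfolded protein response element, TGACGTG, was in none of the 10 promoters and in 1.96% of all 34796 distinct promoters. ERSE was found in HSPA5, HSP90B1, XBP1 and CALR, and in 27 promoters (0.0776%) in all. ERSE-II was found in HERPUD1 and SDF2L1, and in 19 promoters (0.0546%) in all. In the sequences below, read 5′ to 3′ on the strand of the gene and ending before its first annotated exon base, capitals mark a match, with the 9 free bases of ERSE left in lower case and the 1 free base of ERSE-II in capitals. HSPA5 lies at chr9:125241383-125241463 (minus strand), XBP1 at chr22:28800598-28800689 (minus), HERPUD1 at chr16:56932015-56932141 (plus), SDF2L1 at chr22:21642104-21642301 (plus) and CALR at chr19:12938374-12938577 (plus). DNAJB9, at chr7:108569754-108569866 (plus), is shown as a member with no match.
HSPA5: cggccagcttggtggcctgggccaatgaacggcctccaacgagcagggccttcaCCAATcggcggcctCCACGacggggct
XBP1: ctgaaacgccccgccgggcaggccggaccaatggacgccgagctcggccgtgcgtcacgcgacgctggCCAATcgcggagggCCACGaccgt
HERPUD1: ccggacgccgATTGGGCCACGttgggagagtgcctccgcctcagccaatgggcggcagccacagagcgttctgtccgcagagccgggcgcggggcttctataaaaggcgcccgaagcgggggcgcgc
SDF2L1: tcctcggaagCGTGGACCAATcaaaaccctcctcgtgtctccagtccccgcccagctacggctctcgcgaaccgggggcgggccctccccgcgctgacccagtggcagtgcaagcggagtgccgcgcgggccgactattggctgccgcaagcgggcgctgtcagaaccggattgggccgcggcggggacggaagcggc
CALR: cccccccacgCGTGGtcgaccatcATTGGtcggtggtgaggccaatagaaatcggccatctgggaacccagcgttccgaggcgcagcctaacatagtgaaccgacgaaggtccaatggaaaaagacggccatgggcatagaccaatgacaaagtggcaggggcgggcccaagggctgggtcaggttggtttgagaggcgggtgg
DNAJB9: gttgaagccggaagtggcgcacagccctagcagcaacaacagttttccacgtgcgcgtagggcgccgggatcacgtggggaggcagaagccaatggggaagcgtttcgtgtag

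Distances are counted from the RefSeq start, which lies inside the counted gene model of some members. The last printed base thus lies 40 bases before that start in HSPA5, 29 in XBP1, 32 in CALR and 8 in DNAJB9. The match began 66 bases before the start in HSPA5 and 52 bases before it in XBP1, both on the strand of the gene. In CALR it lay on the opposite strand, 225 to 207 bases before the start. HSP90B1 held a pair of matches, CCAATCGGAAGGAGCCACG on its own strand and CGTGGTGCGGCGCGATTGG on the other. ERSE-II lay 117 bases before the start of HERPUD1 and, on the opposite strand, 188 bases before that of SDF2L1. A match is a description of letters, and no match in DNAJB9, PDIA4, ATF6 or ERN1 says only that these letters are not in this window.

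Levels between genes were compared as CPM (the depth-normalised count after TMM scaling) per kb of annotated exon length. In control libraries CALR, a calcium-binding lectin chaperone, was highest at 491 ± 7.45 CPM per kb (SD, n = 3). The other abundant chaperones followed: HSP90B1 (GRP94) at 125 ± 2.87, HSPA5 at 113 ± 4.04 and the disulfide isomerase PDIA4 at 97.0 ± 0.852 CPM per kb. XBP1 stood at 22.6 ± 0.629 and SDF2L1, a small luminal partner of J proteins, at 14.6 ± 0.129 CPM per kb. ATF6 at 4.87 ± 0.127, DNAJB9 at 3.75 ± 0.192, HERPUD1 at 3.36 ± 0.245 and ERN1 at 0.496 ± 0.0513 CPM per kb closed the order. No neighbours in this order overlapped in control. Exon lengths are the union of all annotated exons, so genes with long alternative exons read lower on this scale. They were 19.153 kb for ERN1, 14.263 kb for ATF6, 13.092 kb for HSP90B1 and 2.802 kb for CALR. For HSPA5 the length of 6.53 kb equals its whole genomic span. Without division by length, HSP90B1 stood above CALR in control, with means of 1639 and 1376.5 CPM.

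The order changed with lurbinectedin. ATF6 went to last place at 0.441 ± 0.0528 CPM per kb, below ERN1 at 0.627 ± 0.0731, and DNAJB9 at 13.7 ± 1.17 stood above SDF2L1 at 11.1 ± 0.531 CPM per kb. HSPA5 and HSP90B1 overlapped in this group, as they did with teriflunomide and with the combination; with teriflunomide SDF2L1 also overlapped ATF6. In the combination, DNAJB9 overlapped SDF2L1 and ERN1 overlapped ATF6. The members together took 0.462% to 0.466% of all counts in control, between 0.314% and 0.333% under lurbinectedin and between 0.312% and 0.322% for the combination. Over non-mitochondrial counts these shares were 0.496% to 0.502%, 0.379% to 0.386% and 0.370% to 0.415%. With teriflunomide they were 0.395% to 0.435% of all and 0.458% to 0.511% of non-mitochondrial counts, the latter overlapping control.

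**Figure D1:**
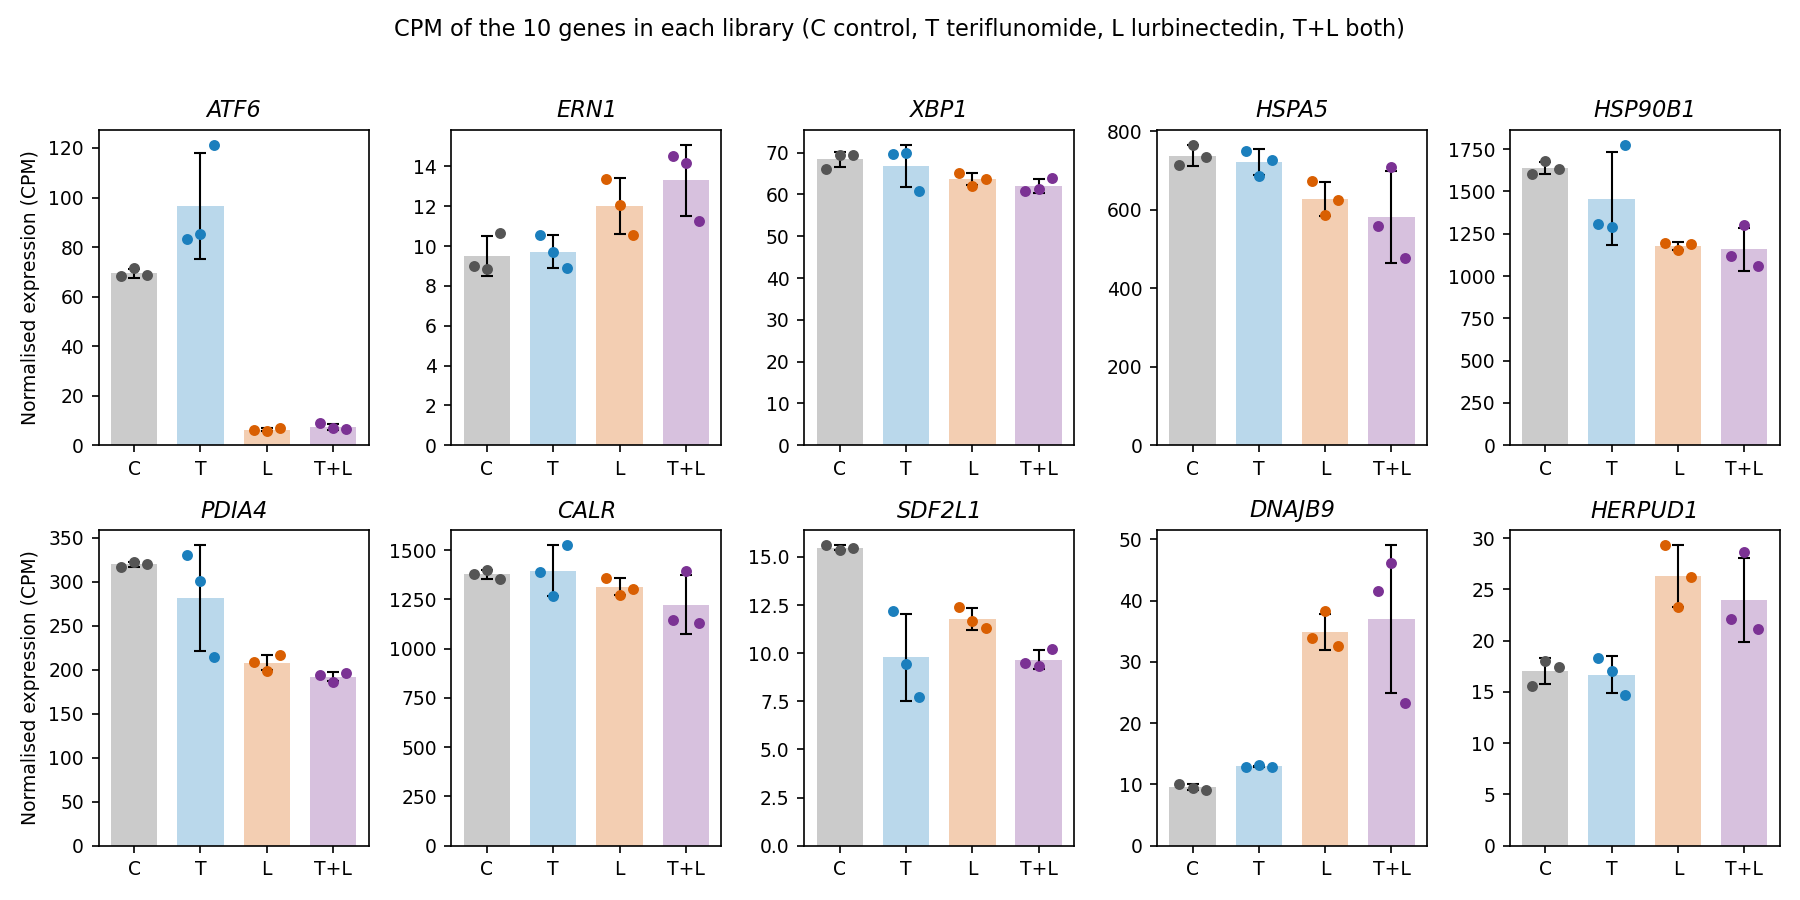
Normalised expression (CPM, y axis, starting at 0) of each gene in the 4 groups of 3 libraries (x axis); points are libraries, bars the mean and lines the SD. ATF6 stood between 5.59 and 8.80 CPM in the 6 libraries with lurbinectedin and between 68.4 and 121 CPM in the other 6, whereas DNAJB9 was at 23.3 CPM or more with lurbinectedin and at 13.1 CPM or less without it.

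Lurbinectedin against control measures the effect of the chemotherapeutic agent. The sensor gene ATF6 fell 11-fold, while DNAJB9 rose 3.67-fold and HERPUD1 rose 1.54-fold. These changes, like all below, are relative to the other genes of a library, and RNA amount per cell cannot be read from CPM. The chaperone genes PDIA4, HSP90B1 and SDF2L1 fell by smaller amounts, and HSPA5, CALR, XBP1 and ERN1 did not pass the test. So 6 of 10 members were called by the quasi-likelihood test of edgeR (threshold 0.05 after Benjamini-Hochberg adjustment over 16683 genes), 2 higher and 4 lower, where 71.6% of all genes tested were called, 36% higher and 35.7% lower. The members' median log2 fold change was -0.17 and that of all genes 0.05. Groups did not overlap for 8 members, against 83.2% of all genes. The count of members called was not above the share over all genes, and it was 2 when the test asked for more than a 1.5-fold change (the TREAT test, which kept ATF6 and DNAJB9).

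Among the sensors, ATF6 (ENSG00000118217.7, chromosome 1, 161766298 to 161977574, plus strand) was at 68.4, 71.6 and 68.5 CPM in control and at 6.20, 5.59 and 7.09 CPM with lurbinectedin. The groups were far apart, and the gene fell by 3.46 on the log2 scale (SE 0.175, edgeR adjusted p = 8.85e-10). ERN1 (ENSG00000178607.17, chromosome 17, 64039080 to 64130819, minus strand) was at 9.01, 8.86 and 10.6 CPM in control and 13.4, 12.1 and 10.6 CPM with lurbinectedin. Its groups touched, and its change of 0.33 on the log2 scale (SE 0.145, edgeR adjusted p = 0.0517) just missed the threshold. It was called without control replicate 3 (0.42, adjusted p = 0.042), teriflunomide replicate 3 (0.32, adjusted p = 0.0353), lurbinectedin replicate 3 (0.41, adjusted p = 0.0405) or combination replicate 3 (0.33, adjusted p = 0.0363), without both teriflunomide replicate 3 and combination replicate 2 (0.32, adjusted p = 0.0202), with a minimum of 1 CPM in 3 libraries (0.38, adjusted p = 0.0295) and when only these groups were fitted (0.31, adjusted p = 0.00584). XBP1 (ENSG00000100219.16, chromosome 22, 28794555 to 28800597, minus strand) was at 66.2, 69.6 and 69.4 CPM in control and 65.0, 62.1 and 63.8 CPM with lurbinectedin. These groups did not overlap but were close, with a log2 fold change of -0.10 (95% interval -0.30 to 0.09, edgeR adjusted p = 0.326). Gene counts add the spliced and unspliced forms of XBP1, so the output of IRE1 cannot be read from them.

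None of the luminal chaperone and folding members, HSPA5, HSP90B1, PDIA4, CALR and SDF2L1, was called higher. HSPA5 (ENSG00000044574.9, chromosome 9, 125234853 to 125241382, minus strand) was at 715, 767 and 734 CPM in control and 673, 588 and 624 CPM with lurbinectedin. All 3 treated libraries lay below control, but the change of -0.23 on the log2 scale (SE 0.123, edgeR adjusted p = 0.104) was not called. It was called without teriflunomide replicate 3 (-0.25, adjusted p = 0.048), combination replicate 2 (-0.24, adjusted p = 0.0272) or combination replicate 3 (-0.23, adjusted p = 0.049), when scaled by library size alone (-0.47, adjusted p = 0.00117), without the filter (-0.31, adjusted p = 0.0349) when only these groups were fitted (-0.25, adjusted p = 8.21e-05) and without both teriflunomide replicate 3 and combination replicate 2 (-0.24, adjusted p = 0.00316). HSP90B1 (ENSG00000166598.16, chromosome 12, 103930107 to 103953931, plus strand), the ER member of the HSP90 family, was at 1605, 1679 and 1633 CPM in control and 1194, 1152 and 1190 CPM with lurbinectedin. It fell by 0.48 on the log2 scale (SE 0.123, edgeR adjusted p = 0.00326) with no overlap. Its exons share 805 bases with UQCC6 on the other strand, and whether strand was used in counting is not stated.

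PDIA4 (ENSG00000155660.11, chromosome 7, 149003062 to 149028662, minus strand), which forms and rearranges disulfide bonds, was at 317, 322 and 320 CPM in control and 209, 199 and 217 CPM with lurbinectedin. It fell by 0.62 (SE 0.127, edgeR adjusted p = 0.000584), the strongest fall among the folding factors of the 10. CALR (ENSG00000179218.15, chromosome 19, 12938578 to 12944489, plus strand) was at 1378, 1397 and 1355 CPM in control and 1360, 1274 and 1305 CPM with lurbinectedin. The groups overlapped, and the log2 fold change was -0.07 (95% interval -0.29 to 0.15, edgeR adjusted p = 0.565). Scaled by library size alone, CALR was called lower (-0.30, adjusted p = 0.00414); that scaling moves the median of all genes from 0.05 to -0.18. SDF2L1 (ENSG00000128228.5, chromosome 22, 21642302 to 21644299, plus strand) was at 15.6, 15.3 and 15.5 CPM in control and 12.4, 11.7 and 11.3 CPM with lurbinectedin. It fell by 0.39 (SE 0.148, edgeR adjusted p = 0.0277) without overlap. This call was lost without control replicate 1 (adjusted p = 0.0636), 2 (0.0581) or 3 (0.0618) and without lurbinectedin replicate 2 (0.0686) or 3 (0.0869), with log2 fold changes of -0.40, -0.40, -0.40, -0.40 and -0.37.

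The risers were a co-chaperone and a degradation factor. DNAJB9 (ENSG00000128590.5, chromosome 7, 108569867 to 108574850, plus strand) encodes ERdj4, a J protein that acts with BiP and holds IRE1 inactive. It was at 10.02, 9.46 and 9.05 CPM in control and 33.9, 38.2 and 32.5 CPM with lurbinectedin. The lowest treated library lay far above the highest control library, and the gene rose by 1.88 on the log2 scale (SE 0.200, edgeR adjusted p = 1.32e-06). HERPUD1 (ENSG00000051108.15, chromosome 16, 56932142 to 56944864, plus strand) was at 15.6, 17.99 and 17.4 CPM in control and 29.3, 23.3 and 26.2 CPM with lurbinectedin. It rose by 0.63 (SE 0.145, edgeR adjusted p = 0.00146) without overlap. Of the members called, ATF6, DNAJB9, HERPUD1, HSP90B1 and PDIA4 kept their calls in each fit that left out 1 library.

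**Figure D2:**
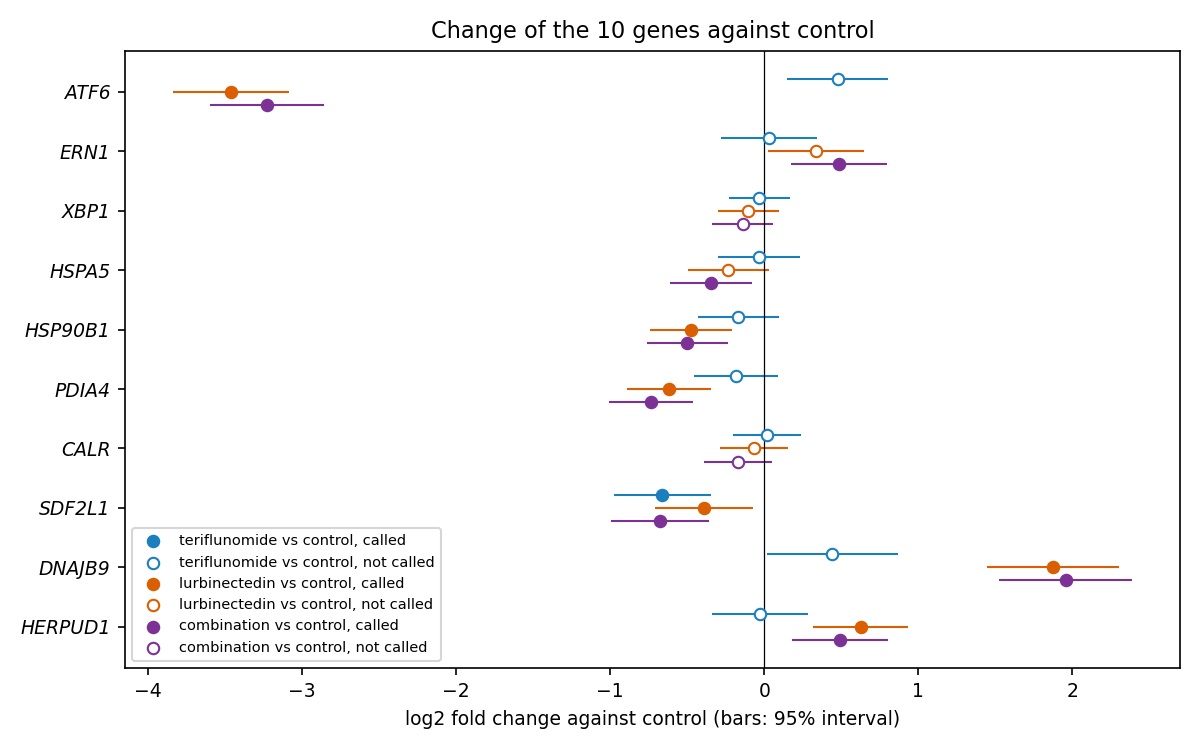
Log2 fold change against control (x axis, with its 95% interval) of the 10 genes (y axis) under teriflunomide, lurbinectedin and the combination; filled points passed the adjusted threshold. ATF6 at -3.46 and -3.23 and DNAJB9 at 1.88 and 1.96 stand apart from the other 8 genes, which lie between -0.73 and 0.63.

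The members differ widely in genomic span, measured from transcript start to end, and fold change with lurbinectedin is related to span over all genes. ATF6 (211 kb) and ERN1 (91.7 kb) belong to quintile 5 of span, the longest genes, whose median log2 fold change was -1.86. ATF6 lay below that median at -3.46 and ERN1 above it at 0.33. HSP90B1 (23.8 kb) and PDIA4 (25.6 kb) belong to quintile 3, with a median of 0.28, and stood at -0.48 and -0.62. HSPA5 (6.53 kb), XBP1 (6.04 kb), CALR (5.91 kb) and HERPUD1 (12.7 kb) belong to quintile 2, with a median of 0.62, where HERPUD1 at 0.63 matched the median and the others were at -0.23, -0.10 and -0.07. In quintile 1, with a median of 0.69, DNAJB9 (4.98 kb) stood at 1.88 and SDF2L1 (1.998 kb) at -0.39. The part of span in these values was not tested.

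**Figure D3:**
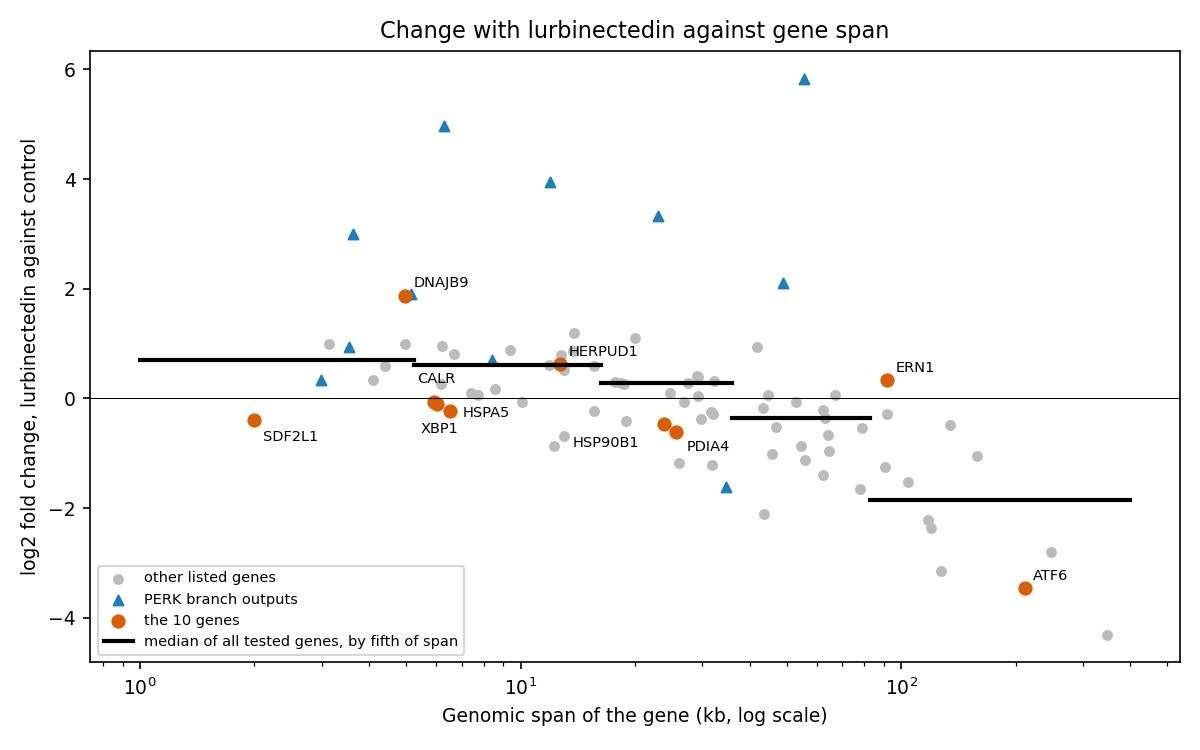
Log2 fold change with lurbinectedin (y axis) against genomic span in kb (x axis, log scale) for the 10 genes, the 11 outputs of the PERK branch and the other listed genes; black lines are medians of all tested genes by quintile of span, drawn from 1 to 400 kb. The medians run from 0.69 in quintile 1 to -1.86 in quintile 5, with DNAJB9 above and SDF2L1 below the line of quintile 1.

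Teriflunomide against control measures the effect of the DHODH inhibitor. SDF2L1 was the only member called, lower by 1.58-fold, so 1 of 10 members passed where 6.01% of all genes tested did (3.88% higher and 2.13% lower). Groups did not overlap for 3 of 10 members, against 36.8% of all genes. SDF2L1 was at 12.2, 9.43 and 7.70 CPM with teriflunomide, all below the 15.3 to 15.6 CPM of control. Its log2 fold change was -0.66 (SE 0.148, edgeR adjusted p = 0.0215). The call was lost without control replicate 1 (-0.66, adjusted p = 0.089), control replicate 2 (-0.67, adjusted p = 0.0838), control replicate 3 (-0.66, adjusted p = 0.0964) or teriflunomide replicate 2 (-0.63, adjusted p = 0.0613), when scaled by library size alone (-0.72, adjusted p = 0.103) and when only these groups were fitted (-0.69, adjusted p = 0.0926).

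ATF6 was at 83.4, 85.2 and 121 CPM and DNAJB9 at 12.8, 13.1 and 12.9 CPM with teriflunomide. Each of these libraries lay above every control library, but neither gene was called. ATF6 stood at 0.48 on the log2 scale (SE 0.153, edgeR adjusted p = 0.08) and DNAJB9 at 0.44 (SE 0.198, edgeR adjusted p = 0.184; 0.0315 without combination replicate 3, at a log2 fold change of 0.44). ATF6 was called with DESeq2 (0.46, adjusted p = 0.0431) and without the filter on low counts (0.44, adjusted p = 0.0485), and its change was 0.28 (adjusted p = 0.0484) without teriflunomide replicate 3 and combination replicate 2. HSP90B1 was at 1310 and 1287 CPM in teriflunomide replicates 1 and 2 and 1778 CPM in replicate 3, which lay above every control library. Its log2 fold change was -0.17 (edgeR adjusted p = 0.409), and it was called lower without that library (-0.34, adjusted p = 0.0232) or without it and combination replicate 2 (-0.34, adjusted p = 0.00105). PDIA4 was spread the other way, at 330, 300.4 and 214 CPM (-0.18, edgeR adjusted p = 0.382). The other 5 members had log2 fold changes between -0.03 and 0.03, with 95% intervals that reached from -0.34 to 0.34.

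The combination against control called 8 of 10 members, 3 higher and 5 lower, where 68.4% of all genes were called, 34.1% higher and 34.4% lower. Groups did not overlap for 9 members, against 77.2% of all genes. This comparison shares its control libraries with those above. ATF6 was at 8.80, 6.83 and 6.60 CPM and fell by 3.23 on the log2 scale (SE 0.172, edgeR adjusted p = 1.78e-09). DNAJB9 was at 41.5, 46.1 and 23.3 CPM, with replicate 3 low in the group but above every control library, and rose by 1.96 (SE 0.200, edgeR adjusted p = 1.07e-06). PDIA4 at 186 to 196 CPM fell by 0.73 (SE 0.127, edgeR adjusted p = 0.000158). SDF2L1 at 9.31 to 10.2 CPM fell by 0.68 (SE 0.148, edgeR adjusted p = 0.00108), and HSP90B1 at 1058 to 1302 CPM fell by 0.50 (SE 0.123, edgeR adjusted p = 0.00256). These 5 calls held in each fit that left out 1 library.

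The remaining calls of the combination were less stable. HSPA5 was at 558, 708 and 477 CPM, the widest spread of the 4 groups, and fell by 0.35 (SE 0.123, edgeR adjusted p = 0.0228). It was not called without control replicate 2 (-0.32, adjusted p = 0.0684), combination replicate 1 (-0.32, adjusted p = 0.0748) or combination replicate 3 (-0.22, adjusted p = 0.0949). HERPUD1 was at 22.1, 28.6 and 21.1 CPM and rose by 0.49 (SE 0.144, edgeR adjusted p = 0.00785), but was not called without combination replicate 2 (0.34, adjusted p = 0.0509) or when scaled by library size alone (0.31, adjusted p = 0.117). ERN1 was at 14.5, 14.2 and 11.3 CPM and rose by 0.48 (SE 0.144, edgeR adjusted p = 0.00854), and was also lost with that scaling (0.31, adjusted p = 0.138). XBP1 at 60.9 to 63.9 CPM (-0.14, edgeR adjusted p = 0.189) and CALR at 1132 to 1394 CPM (-0.17, edgeR adjusted p = 0.155) did not pass. CALR was called lower when scaled by library size alone (-0.35, adjusted p = 0.00163), without combination replicate 2 (-0.28, adjusted p = 0.0166) and without teriflunomide replicate 3 as well (-0.28, adjusted p = 0.000645).

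What teriflunomide added to lurbinectedin was read from the combination against lurbinectedin. No member was called (0 of 10 by edgeR, 0 by DESeq2, 0 at an unadjusted p under 0.05), and 0% of all genes were. The log2 differences ran from -0.28 for SDF2L1 (95% interval -0.61 to 0.04) to 0.23 for ATF6 (-0.14 to 0.60). For HSPA5 the interval was -0.38 to 0.15 and for DNAJB9 -0.33 to 0.49. SDF2L1 and PDIA4 lay below every lurbinectedin library in all 3 combination libraries, and groups that do not overlap were found for 23.7% of all genes. Leaving out both teriflunomide replicate 3 and combination replicate 2, 2 members were called lower: HSPA5 (-0.28, adjusted p = 0.0157) and CALR (-0.20, adjusted p = 0.0319).

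The combination against teriflunomide, which shows lurbinectedin on top of the other drug, called 7 of 10 members where 70.9% of all genes were called (35.2% higher and 35.8% lower). Groups did not overlap for 5 members, against 70.7% of all genes. ATF6 fell 13-fold (-3.70 on the log2 scale, SE 0.174, edgeR adjusted p = 6.95e-10) and DNAJB9 rose 2.86-fold (1.51, SE 0.196, edgeR adjusted p = 9.88e-06). HERPUD1 (0.52) and ERN1 (0.45) rose, and PDIA4 (-0.55), HSP90B1 (-0.33) and HSPA5 (-0.31) fell. SDF2L1, called lower with each treatment against control, differed by -0.02 here (95% interval -0.34 to 0.30). HSP90B1 was not called without teriflunomide replicate 3 (-0.17, adjusted p = 0.0858), combination replicate 1 (-0.29, adjusted p = 0.0853) or combination replicate 3 (-0.27, adjusted p = 0.0895), with a minimum of 1 CPM in 3 libraries (-0.28, adjusted p = 0.0587) or when only these groups were fitted (-0.32, adjusted p = 0.133). HSPA5 was not called without teriflunomide replicate 1 (-0.29, adjusted p = 0.0802), any 1 lurbinectedin library (-0.30 or -0.31, adjusted p = 0.0501 to 0.0568), combination replicate 1 (-0.28, adjusted p = 0.115) or combination replicate 3 (-0.19, adjusted p = 0.146), with that minimum (-0.26, adjusted p = 0.0763) or on these groups only (-0.30, adjusted p = 0.136). ERN1 was not called when scaled by library size alone (0.35, adjusted p = 0.0919). CALR was called lower by library size alone (-0.28, adjusted p = 0.0067), without combination replicate 2 (-0.29, adjusted p = 0.0134) and without teriflunomide replicate 3 as well (-0.23, adjusted p = 0.00658), and XBP1 without teriflunomide replicate 3 (-0.18, adjusted p = 0.0484).

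The interaction, the effect of teriflunomide with lurbinectedin minus its effect without, was not called for any member (0 of 10 by edgeR, 0 by DESeq2, 0 at an unadjusted p under 0.05; 0.258% of all genes were called, 0.036% higher and 0.222% lower). It ran from -0.36 for DNAJB9 (95% interval -0.95 to 0.23) to 0.38 for SDF2L1 (-0.07 to 0.83).

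Likeness between members was measured as the root mean square difference over the 12 libraries of log2 CPM centred on the control mean. XBP1 and CALR were nearest at 0.13, followed by HSPA5 and CALR at 0.15, and ERN1 and HERPUD1 stood at 0.20. ATF6 and DNAJB9 were farthest apart at 3.70. Among 10311 other genes with a mean of at least 5 CPM, those nearest to HSPA5 were SUMO3 at 0.08 and MRPL35, GARS1 and TMCO1 at 0.09 each. Those nearest to ATF6 were TTLL5 at 0.16, PIGK and R3HDM2 at 0.20 each and TCF7L1 at 0.22. These 4 genes span 321, 130, 177 and 177 kb, and the nearest 4 to HSPA5 span 13.2, 14.4, 53.5 and 103 kb. With lurbinectedin the log2 fold changes of these 4 neighbours of ATF6 lay between -3.78 and -3.44. They were picked for likeness over these same libraries, so this closeness was set by the choice.

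A further 78 genes of the unfolded protein response in 5 lists were examined, of which 76 were tested (DERL3, with 1 count in all, and ERN2, with 5, were not). With lurbinectedin 31 were higher and 29 lower (78.9% called, beside 71.6% of all genes; median 0.06 on the log2 scale). Under teriflunomide 3 were higher and 1 lower (5.26%, beside 6.01%; median 0.03), and with the combination 28 were higher and 29 lower (75%, beside 68.4%; median -0.10). The lists below are to be read against the 36% of all genes called higher and 35.7% called lower with lurbinectedin.

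Of the 11 outputs of the PERK branch, 10 were higher with lurbinectedin, where 36% of all genes were, and TRIB3 was lower; the median of the list was 2.11 on the log2 scale. ATF3, a stress-induced transcription factor, went from 2.57 to 3.02 CPM in control to 152 to 176 CPM (5.83 on the log2 scale, SE 0.155, edgeR adjusted p = 8.38e-12). TNFRSF10B, a death receptor, went from 236 to 247 CPM to between 1004 and 1071 CPM (2.11, SE 0.111, edgeR adjusted p = 1.26e-09). DDIT3 stood at 5.76 to 6.25 CPM in control and 20.8 to 24.0 CPM with lurbinectedin (1.91, SE 0.136, edgeR adjusted p = 2.05e-08). ATF3, TNFRSF10B, BBC3 and SESN2 of this list are also known p53 targets.

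ATF4 itself moved little, from 205 to 216 CPM in control to 252 to 277 CPM with lurbinectedin (0.34, SE 0.123, edgeR adjusted p = 0.0226). This call was lost without control replicate 1 (0.33, adjusted p = 0.0633) or 2 (0.32, adjusted p = 0.0727), without lurbinectedin replicate 1 (0.30, adjusted p = 0.0931) or 3 (0.33, adjusted p = 0.0718), when scaled by library size alone (0.11, adjusted p = 0.605) and without the filter on low counts (0.27, adjusted p = 0.093). TRIB3, a pseudokinase induced by ATF4 and CHOP and named after its value was seen, fell from 27.5 to 29.3 CPM to 8.72 to 9.97 CPM (-1.62, SE 0.280, edgeR adjusted p = 0.000136). EIF2AK3, the PERK gene, fell from 16.3 to 18.7 CPM to 11.4 to 13.8 CPM (-0.49, SE 0.140, edgeR adjusted p = 0.00607). With the combination 9 of the 11 outputs were higher and TRIB3 lower. DDIT3 then stood at 1.77 (SE 0.136, edgeR adjusted p = 5.42e-08), while EIF2AK3 was not called (-0.25, edgeR adjusted p = 0.121; called without teriflunomide replicate 3, -0.26, adjusted p = 0.0307, without combination replicate 2 as well, -0.24, adjusted p = 0.0493, and by library size alone, -0.42, adjusted p = 0.0283). ATF4 was called in the combination (0.32, SE 0.123, edgeR adjusted p = 0.0308), but not without any 1 control library (adjusted p = 0.0612 to 0.0938), lurbinectedin replicate 3 (0.32, adjusted p = 0.0525), combination replicate 2 (0.26, adjusted p = 0.121) or combination replicate 3 (0.32, adjusted p = 0.0588), by library size alone (0.15, adjusted p = 0.474) or without the filter (0.26, adjusted p = 0.105).

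With teriflunomide 2 PERK outputs were called. ATF3 stood at 4.50 to 5.51 CPM (0.79, SE 0.146, edgeR adjusted p = 0.00832; 0.73 and 0.0618 without control replicate 3, 0.76 and 0.0579 when only these groups were fitted), and BBC3, which encodes the apoptosis inducer PUMA, at 3.24 to 6.51 CPM (0.90, SE 0.229, edgeR adjusted p = 0.0357). BBC3 was called in only 3 of the 12 fits that left out 1 library, those without teriflunomide replicate 3 or combination replicate 2 or 3; over the 12 its log2 fold change ranged from 0.72 to 1.15. It was also not called with the replicate block (0.90, adjusted p = 0.0779), by library size alone (0.85, adjusted p = 0.175) or on these groups only (0.88, adjusted p = 0.144). DDIT3 (0.26, edgeR adjusted p = 0.251), ATF4 (-0.34, edgeR adjusted p = 0.116) and EIF2AK3 (0.31, edgeR adjusted p = 0.18) did not pass. DDIT3 was called higher without teriflunomide replicate 3 and combination replicate 2 (0.36, adjusted p = 0.0473).

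**Figure D4:**
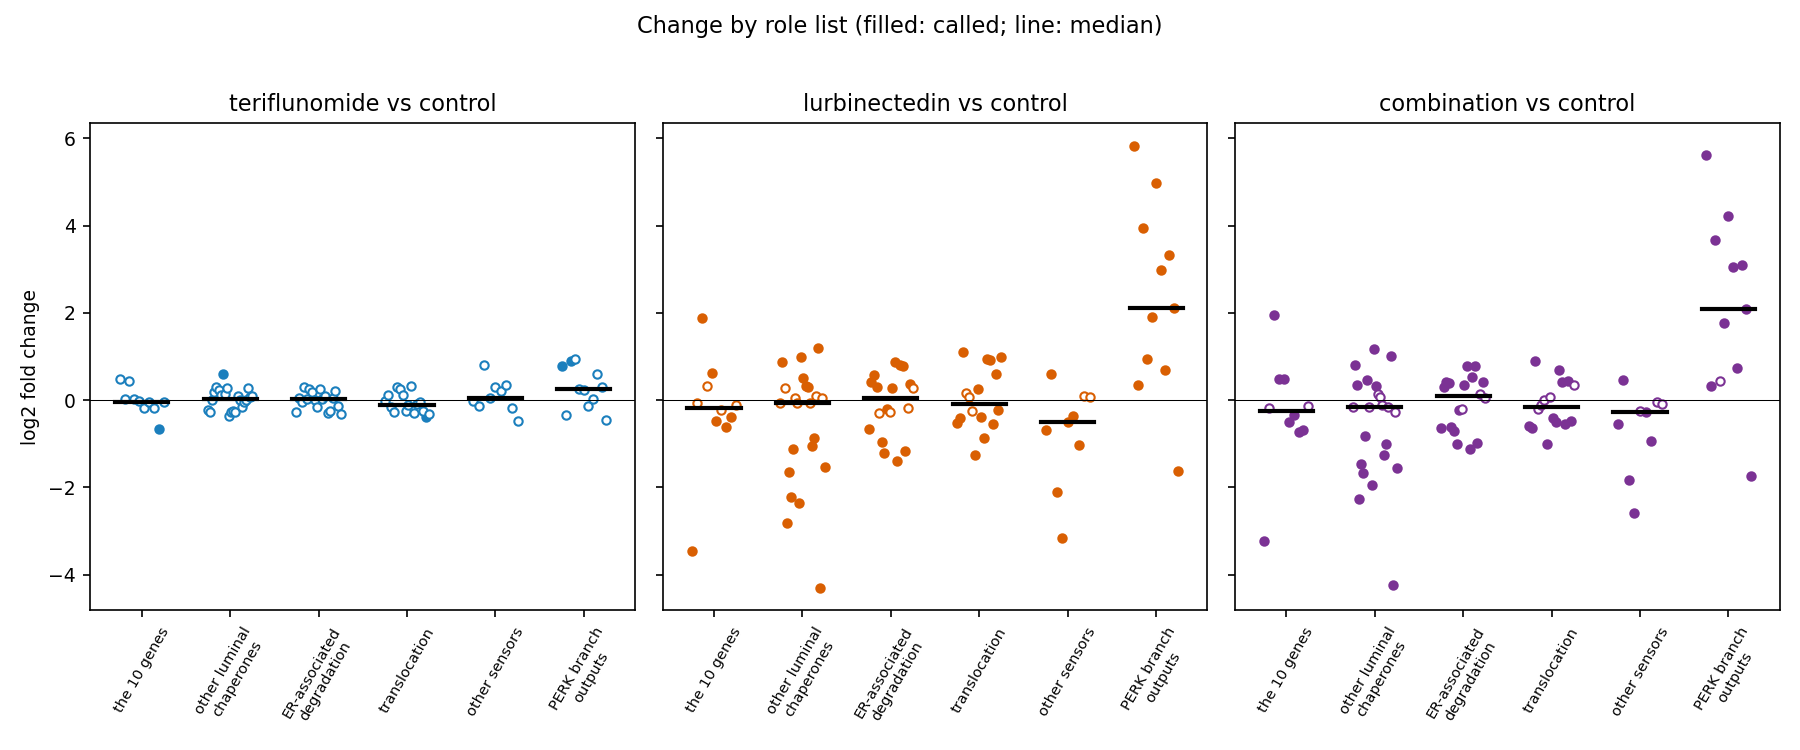
Log2 fold change against control (y axis) of each tested gene by role list (x axis) for teriflunomide, lurbinectedin and the combination; filled points were called and lines are medians. The PERK outputs have medians of 0.26, 2.11 and 2.09, and the medians of the other lists lie between -0.49 and 0.10.

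Of 9 other sensors and processing enzymes tested, 6 were called lower with lurbinectedin and 1 higher (77.8% called, beside 71.6% of all genes). CREB3L2, an ER-anchored relative of ATF6, fell from 82.9 to 90.5 CPM to 9.21 to 10.5 CPM (-3.15, SE 0.166, edgeR adjusted p = 1.26e-09), and MBTPS2, the site-2 protease that releases ATF6, fell by 1.02 (SE 0.135, edgeR adjusted p = 1.17e-05). With teriflunomide edgeR called 0 of the 9 (5 had an unadjusted p under 0.05); CREB3L1, another ATF6 relative, came nearest (0.80, edgeR adjusted p = 0.0593) and was called without teriflunomide replicate 1 (0.91, adjusted p = 0.0479) or lurbinectedin replicate 1 (0.79, adjusted p = 0.0435), without the filter (0.77, adjusted p = 0.0226), with DESeq2 (0.79, adjusted p = 0.0215) and without teriflunomide replicate 3 and combination replicate 2 (0.58, adjusted p = 0.0451). MBTPS2 had a log2 fold change of 0.35 there (edgeR adjusted p = 0.124).

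Of 22 other luminal chaperones and folding enzymes, 6 were higher and 9 lower with lurbinectedin (68.2% called, beside 71.6% of all genes). The higher ones included SDF2 (1.20) and CRELD2 (0.89), while the list's smallest adjusted p belonged to genes that fell. SIL1, a nucleotide exchange factor of BiP, fell from 12.6 to 14.9 CPM to 0.582 to 0.782 CPM (-4.31, SE 0.222, edgeR adjusted p = 1.07e-09), and UGGT1, the glucosyltransferase that senses misfolded glycoproteins, fell by 1.53 (SE 0.0977, edgeR adjusted p = 6.99e-09). With teriflunomide only the oxidase gene ERO1B was called, higher (0.60, SE 0.136, edgeR adjusted p = 0.0221), and this was lost without control replicate 1 (0.53, adjusted p = 0.124), 2 (0.69, adjusted p = 0.0533) or 3 (0.60, adjusted p = 0.106) with the replicate block (0.61, adjusted p = 0.0541), by library size alone (0.51, adjusted p = 0.0825) and on these groups only (0.58, adjusted p = 0.076). HYOU1 was not called there (-0.27, edgeR adjusted p = 0.131).

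In ER-associated degradation 8 of 18 tested genes were higher and 6 lower with lurbinectedin (77.8% called, beside 71.6% of all genes). The higher ones included RNF139 (0.86), SELENOS (0.81) and SYVN1 (0.78), while the list's smallest adjusted p belonged to genes that fell. SEL1L, the scaffold of the HRD1 ligase, fell by 1.40 (SE 0.120, edgeR adjusted p = 1.52e-07), and the lectin gene ERLEC1 fell by 1.21 (SE 0.128, edgeR adjusted p = 1.18e-06). With teriflunomide 0 of the 18 were called by edgeR (3 had an unadjusted p under 0.05), with SELENOS (-0.30, adjusted p = 0.113) and OS9 (0.26, adjusted p = 0.122) nearest; DESeq2 called SELENOS (-0.31, adjusted p = 0.0347), and OS9 was called without teriflunomide replicate 3 and combination replicate 2 (0.25, adjusted p = 0.0127). Of 16 genes of translocation and signal peptide handling, 6 were higher and 7 lower with lurbinectedin (81.2% called, beside 71.6% of all genes). The lower ones included SEC63 (-1.26) and SPCS3 (-0.86), while the list's smallest adjusted p belonged to genes that rose. The channel gene SEC61A1 rose by 1.10 (SE 0.119, edgeR adjusted p = 1.45e-06) and the signal receptor gene SRPRA by 0.95 (SE 0.122, edgeR adjusted p = 8.71e-06). With teriflunomide SSR3, of the translocon-associated complex, was called lower (-0.38, SE 0.0927, edgeR adjusted p = 0.0292), and SRPRA was not (-0.30, adjusted p = 0.148). The SSR3 call was lost in 6 of the 12 fits that left out 1 library, those without a control library, teriflunomide replicate 2 or lurbinectedin replicate 2 or 3 (over all 12 it ranged from -0.43 to -0.33), with the replicate block (-0.39, adjusted p = 0.0537), by library size alone (-0.46, adjusted p = 0.0961) and on these groups only (-0.41, adjusted p = 0.0703).

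By span, the medians of the 86 tested genes of all lists fell from quintile 1 to quintile 5 with lurbinectedin, as those of all genes did. In quintile 1, 9 of 10 were higher and 1 lower, where 50.9% of all genes were higher and 12.5% lower (median 0.97, against 0.69 for all genes). In quintile 2, 14 of 24 were higher and 3 lower, beside 56.9% and 12.3% of all genes (0.55 against 0.62). In quintile 3, 7 of 21 were higher and 7 lower, beside 44.6% and 21.2% (0.04 against 0.28). In quintile 4, 3 of 19 were higher and 12 lower, beside 21.2% and 49.1% (-0.53 against -0.36). In quintile 5, 0 of 12 were higher and 10 lower, beside 5.83% and 83.7% (-1.87 against -1.86). EIF2AK3 (-0.49), UGGT1 (-1.53), CREB3L2 (-3.15) and SIL1 (-4.31) belong to this quintile. The part of span in their values was not tested.

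Of 25 named genes with the ERSE motif, 8 were in the lists, and 16 were tested. Of these 3 were called higher and 4 lower with lurbinectedin (median log2 fold change -0.07), where 36% of all genes were higher and 35.7% lower. Among the 4 members with ERSE, HSP90B1 was called lower and HSPA5, XBP1 and CALR were not called. The 2 members with ERSE-II went apart, HERPUD1 higher and SDF2L1 lower, and the 16 tested genes with that motif split into 6 higher and 9 lower, to be read against the same shares.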

How the data were processed

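The deposited files hold raw read counts per gene, 1 file per library, with the featureCounts column layout per the file headers. The submitters' processing notes name fastp 0.23.2, STAR 2.7.9, Subread, featureCounts and the build hg38; the annotation release, strand use and treatment of multi-mapping reads are not given in the sources used here. All 37318 gene identifiers that share a version with GENCODE 29 have identical positions there. Gene names were matched for 60463 identifiers from the supplied name table.

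filterByExpr kept 16683 genes, and libraries were normalised with TMM. In edgeR 4.0.16 (R 4.3.3) the 4 groups entered 1 robust quasi-likelihood fit over the 12 libraries, p-values were adjusted over all genes by Benjamini-Hochberg, and a gene was called under 0.05. The biological coefficient of variation was 14.5%. Standard errors were derived from the F statistic. DESeq2 1.42.0 served as an alternative. Counts per gene and library were at least 128 for the members.

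The members and lists were chosen with earlier results of these data known. From each list the 2 genes with the smallest adjusted p with lurbinectedin and with teriflunomide were named, and EIF2AK3, ATF4 and DDIT3 in any case. For some lists, genes called in the other direction were added after their values were seen. Alternatives were other scalings, filters, thresholds and fits, the replicate block, and leaving out each library. No protein sequences were used here. 1 marker gene is not reported here.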

Additional observations from a re-analysis of the deposited data

Results flagged for a closer look

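The effect of teriflunomide on ATF3 differed with and without lurbinectedin by the interaction term, the only one of the 86 tested genes of the lists for which it passed. The interaction was -1.01 on the log2 scale (SE 0.189, edgeR adjusted p = 0.0475). Without lurbinectedin ATF3 changed by 0.79 with teriflunomide, from 2.57 to 3.02 CPM to 4.50 to 5.51 CPM; on top of lurbinectedin it differed by -0.22, from 152 to 176 CPM to 125 to 160 CPM, and that difference alone was not called (edgeR adjusted p = 0.393). Of the 12 fits that each left out 1 library the interaction was called only in those without teriflunomide replicate 3 (-1.05, adjusted p = 0.00604) or combination replicate 2 (-1.12, adjusted p = 0.0275), and over the 12 its adjusted p ranged from 0.00604 to 0.204. It was not called with the replicate block (-1.004, adjusted p = 0.119). Scaled by library size alone it was not called either (-0.88, adjusted p = 0.239). The call was also lost with DESeq2 size factors (-0.99, adjusted p = 0.0565) and with a minimum of 1 CPM in 3 libraries (-1.001, adjusted p = 0.0514). The DESeq2 test called it (-0.99, adjusted p = 0.00151), as did the fit without a filter (-0.97, adjusted p = 0.00367). Of 21 alternatives, 5 kept the call and 16 lost it.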

How the results depend on the processing

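The count of members called with lurbinectedin, 6, was 5 to 8 when 1 library was left out and 2 when more than a 1.5-fold change was asked for (TREAT), which also gave 2 for the combination against control and 2 against teriflunomide; a threshold of 0.01 gave 4 for the last. With teriflunomide, for the members (1), the wider lists (4) and all genes (1002) the counts were 0, 1 and 265 when scaled by library size alone, 2, 8 and 1800 without a filter, 0, 0 and 283 when fitted on these groups only, 2, 8 and 1907 with DESeq2, 0, 1 and 230 at 0.01, 0, 0 and 33 with TREAT, and 0 to 2, 0 to 8 and 216 to 1555 leaving out 1 library. Leaving out both teriflunomide replicate 3 and combination replicate 2, chosen after seeing the data, gave 3, 11 and 2757, and for the combination against lurbinectedin 2 members and 3640 genes (0 in the reported fit). That last comparison called 612 genes without a filter, 94 on these groups only, 584 with DESeq2 and 0 to 2067 leaving out 1 library. The interaction (43 genes) gave 6 by library size alone, 195 without a filter, 258 with DESeq2, 5 at 0.01, 1 with TREAT, 1839 without both libraries and 2 to 616 leaving out 1; a fit on the groups compared only does not apply to it. TREAT left 34 wider-list genes with lurbinectedin, 28 wider-list and 7267 of all genes with the combination, and 7854 genes for the combination against teriflunomide.

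With the replicate block the members' counts were as reported (6, 1, 8, 0, 7 and 0), while teriflunomide called 415 genes and 1 of the wider lists and the interaction called 8. The replicate numbers revealed no pairing: of 18 same-numbered pairs, 1 had deviations correlated over 0.1 (range -0.40 to 0.14). Differently numbered pairs were not compared, so this check cannot tell whether libraries were paired.

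Library size alone moved the share of higher calls from 50.2% to 39.2% with lurbinectedin and the median of all genes from 0.05 to -0.18. Values that changed sign were small, and none was called in either fit. By library size alone these were CALR (-0.070) and ERN1 (-0.041) with teriflunomide, HSP90B1 (0.031) and XBP1 (0.032) in the combination against lurbinectedin, and in the interaction HSPA5 (0.045), XBP1 (0.14), HERPUD1 (0.012) and CALR (0.022). The XBP1 interaction was 0.0176 with DESeq2 size factors, 0.0177 with the DESeq2 test, 0.035 without a filter and 0.0014 with a minimum of 1 CPM, where SDF2L1 in the combination against teriflunomide was 0.033. CALR with teriflunomide was -0.0076 without a filter and -0.0081 on the groups compared. Without both libraries XBP1 (0.028), HERPUD1 (0.053) and CALR (-0.050) with teriflunomide, DNAJB9 in the combination against lurbinectedin (-0.11) and the PDIA4 interaction (-0.069) changed sign. Leaving out 1 library or both, ranges crossed 0 with teriflunomide for ERN1 (-0.031 to 0.12), HERPUD1 (-0.098 to 0.053), HSPA5 (-0.061 to 0.0046), XBP1 (-0.063 to 0.028) and CALR (-0.051 to 0.086); in the combination against lurbinectedin for HSP90B1 (-0.11 to 0.038), DNAJB9 (-0.11 to 0.33) and HSPA5 (-0.28 to 0.010); against teriflunomide for SDF2L1 (-0.17 to 0.17); and in the interaction for XBP1 (-0.058 to 0.031), PDIA4 (-0.086 to 0.20), HERPUD1 (-0.33 to 0.00030), ATF6 (-0.36 to 0.0080) and HSPA5 (-0.24 to 0.043). The cause was not tested.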

Other observations

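The helpers of BiP, named here after their values were seen, went in different directions with lurbinectedin. Among the J proteins that deliver clients to BiP, DNAJB9 was called higher (1.88) and DNAJC1 (-2.81), DNAJC3 (-2.21) and DNAJC10 (-1.65) lower, while DNAJB11 was not called (0.27, edgeR adjusted p = 0.0517). Of the nucleotide exchange factors, HYOU1 was called higher (0.51) and SIL1 lower (-4.31). DNAJB9 (4.98 kb) and HYOU1 (13.0 kb) belong to span quintiles 1 and 2, where 50.9% and 56.9% of all genes were higher. DNAJC10 (78.2 kb) belongs to quintile 4, where 49.1% of all genes were lower. DNAJC1 (247 kb), DNAJC3 (118 kb) and SIL1 (347 kb) belong to quintile 5, where 83.7% were lower. The part of span in these directions was not tested. DNAJC3, which also inhibits PERK, stood at 95.6 to 107 CPM in control and 112 to 127 CPM with teriflunomide (0.24, not called). It was at 19.0 to 23.3 CPM with lurbinectedin and 26.4 to 39.5 CPM with the combination. FICD, the enzyme that switches BiP off by AMPylation and whose promoter holds ERSE, was at 3.92 to 4.69 CPM in control, 4.60 to 5.14 CPM with teriflunomide, 15.4 to 16.1 CPM with lurbinectedin and 12.99 to 21.96 CPM with the combination. It was called higher with lurbinectedin (1.92, SE 0.178, edgeR adjusted p = 3.25e-07) and not with teriflunomide (0.21, edgeR adjusted p = 0.491).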
